A study of Arabidopsis thaliana with 9 samples.

Results

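The genes described here were those whose transcripts were highest in arid2/3/4 seedlings of Arabidopsis, chosen by their values in 9 RNA-seq libraries. A gene was taken when each of its 3 arid2/3/4 values was at least 2 times the highest of its 6 WT and epcr1/2 values and its arid2/3/4 mean was 2 FPKM or more (FPKM, fragments counted, scaled by transcript length and library depth). The rule found 107 genes of 28117, or 0.381% of the table, with 2 loci left out by name. In 16 of them the rule was met only because all 6 WT and epcr1/2 values were 0, and they were above 0 in 1 library alone. The other 91, or 0.324% of the table, had a value above 0 in all 3 arid2/3/4 libraries, and all 91 are protein coding. Because the values of arid2/3/4 against the other genotypes chose these genes, they are given as a description with no test.

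The libraries came from whole seedlings 10 days old, grown on MS plates under long days, of 3 genotypes with 3 libraries each. WT is the wild type, arid2/3/4 is labelled as homozygous mutant in ARID2, ARID3 and ARID4, and epcr1/2 as mutant in EPCR1 and EPCR2. The labels name no allele, no separate cultures and no treatment, and whole seedlings mix all organs, so fewer cells of a type and less RNA per cell cannot be told apart. ARID proteins carry an AT-rich DNA-binding domain, and EPCR proteins are relatives of the Enhancer of Polycomb. In Arabidopsis both belong to the PEAT complexes, together with PWWP-domain proteins and telomere repeat binding proteins, and these complexes are known for histone deacetylation and for silencing of heterochromatin. Complexes of this kind also hold histone acetyltransferases and a deubiquitinase.

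The mutated genes were read first. ARID2 in WT stood at 22.5, 20.1 and 22.5 FPKM, and in arid2/3/4 at 2.12, 2.15 and 2.06 FPKM. ARID3 was at 8.68, 8.22 and 8.65 FPKM in WT against 3.6, 4.04 and 5.62 FPKM in arid2/3/4, and ARID4 at 11.4, 10.9 and 13.6 FPKM against 3.58, 3.13 and 4.28 FPKM. EPCR1 was at 11.8, 10.5 and 16.4 FPKM in WT and at 0.344, 0.514 and 1.08 FPKM in epcr1/2, while EPCR2 was at 8.36, 6.99 and 11.8 FPKM in WT and 10.1, 10.4 and 12 FPKM in epcr1/2. The values of 4 of the 5 mutated genes were thus lower in their mutant in every library, and that of EPCR2 was not.

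The libraries numbered 3 stood apart in every genotype. Their depth was higher, at 53.1 to 59.6 M fragments against 16.8 to 23.7 M in replicates 1 and 2, a rough figure read from the steps between the smallest values. Pearson r of log2 values was 0.994 to 0.995 between replicates 1 and 2 of a genotype and 0.835 to 0.883 between replicate 3 and another. The rule needs all 3 arid2/3/4 libraries, and without arid2/3/4 replicate 3 it found 502 genes, of which 84 were among the 107. The summed level of 3 shoot markers (CAB1, CAB2 and RBCS1A) was 31567 to 36539 FPKM in WT, 10117 to 20549 in arid2/3/4 and 8515 to 20951 in epcr1/2, lower in every mutant library. The sum of 24 seed maturation genes, none of them a member, was 9.05 to 9.74 FPKM in WT, 1631, 1507 and 119 FPKM in arid2/3/4 and 858, 725 and 363 FPKM in epcr1/2. The sum of 18 root cell type genes was 101 to 159 FPKM in WT, 43.7 to 77.1 in arid2/3/4 and 32.6 to 61.7 in epcr1/2. The part of these differences in the values that follow was not tested.

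Stretches of 200 bases before the annotated start are shown for 6 genes, with the build TAIR10.1 and sequence from RefSeq. They are VIM5 and its neighbour and closest relative VIM1, the adjacent pair AT4G29760 and AT4G29770, and AT2G25330 and REM22, which had some of the larger ratios between arid2/3/4 and the other genotypes. Capitals mark 9 short motifs or their reverse complement, since both strands were searched. The motifs were the abscisic acid element core ACGTG, the G-box CACGTG, the seed RY core CATGCA, the heat shock unit GAANNTTC, the W-box cores TTGACC and TTGACT, the MYC site CACATG, the telomere-like box AAACCCTA and the TATA box TATAAA. The G-box holds the abscisic acid core within it. VIM5 lies on the minus strand (chr1:21412284-21412483), as does VIM1 (chr1:21418116-21418315). AT4G29760 (chr4:14573400-14573599) and AT4G29770 (chr4:14575518-14575717) lie on the plus strand. AT2G25330 (chr2:10791332-10791531) is on the minus strand and REM22 (chr3:5800072-5800271) on the plus strand.
VIM5: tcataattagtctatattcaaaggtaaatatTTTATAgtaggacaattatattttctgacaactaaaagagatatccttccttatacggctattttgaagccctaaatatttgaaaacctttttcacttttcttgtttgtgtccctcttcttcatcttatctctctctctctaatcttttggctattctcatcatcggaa
VIM1: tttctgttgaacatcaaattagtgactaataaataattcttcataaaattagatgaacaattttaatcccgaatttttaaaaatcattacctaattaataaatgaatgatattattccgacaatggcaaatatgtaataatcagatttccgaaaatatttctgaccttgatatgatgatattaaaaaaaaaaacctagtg
AT4G29760: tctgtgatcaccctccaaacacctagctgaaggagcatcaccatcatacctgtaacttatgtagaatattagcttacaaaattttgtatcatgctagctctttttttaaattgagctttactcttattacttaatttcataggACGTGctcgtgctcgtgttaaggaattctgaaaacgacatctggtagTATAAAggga
AT4G29770: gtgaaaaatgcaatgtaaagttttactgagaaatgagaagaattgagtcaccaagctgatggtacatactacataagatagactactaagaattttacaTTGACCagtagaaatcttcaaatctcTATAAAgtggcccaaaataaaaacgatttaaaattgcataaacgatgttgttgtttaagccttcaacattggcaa
AT2G25330: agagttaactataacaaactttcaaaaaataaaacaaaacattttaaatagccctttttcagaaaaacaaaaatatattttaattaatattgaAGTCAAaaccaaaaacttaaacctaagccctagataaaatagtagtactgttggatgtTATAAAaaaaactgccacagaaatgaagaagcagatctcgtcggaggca
REM22: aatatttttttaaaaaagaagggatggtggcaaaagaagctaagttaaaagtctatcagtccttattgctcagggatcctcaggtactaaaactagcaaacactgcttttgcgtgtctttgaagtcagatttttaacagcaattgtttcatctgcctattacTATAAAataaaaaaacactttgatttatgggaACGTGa

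The letters TATAAA or their reverse complement stood in 5 of these 6 windows, all but that of VIM1. In VIM5 it was the reverse complement, toward the end of the window away from the start. Whether any of these matches acts as a TATA box was not tested. After alignment the upstream windows of VIM5 and VIM1 were identical at 57% of 200 positions, while their transcripts were 84.1% identical over 1911 aligned bases. The windows of AT4G29760 and AT4G29770 were identical at 60% of positions and their transcripts at 82.5% over 1010 bases. In the wider window from 250 bases before to 50 after the start, TATAAA on either strand was found in 53.8% of the 91 genes. It was found in 52.6% of all 26691 promoters and in 54.9% of the 9228 promoters of genes with a WT mean under 2 FPKM. The telomere-like box AAACCCTA, the sequence that telomere repeat binding proteins recognise, was found in 9 of the 91 (9.89%), against 6.16% of all and 7.4% of the low group. CACATG was found in 18.7% against 13% and 13.3%, and TTGACC in 17.6% against 14.2% and 14.1%. The abscisic acid core was found in 26.4% of the 91 and 26.9% of all promoters, the G-box in 7.69% and 7.79%, and the RY core in 13.2% and 9.79%. The heat shock unit was found in 13.2% and 11.5%, and TTGACT in 18.7% and 21.9%. None of the 9 shares was tested.

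Most of the 91 genes were scarcely expressed in the other genotypes. Their WT means ran from 0 to 27.1 FPKM with a median of 0.383, their epcr1/2 means from 0 to 55.1 with a median of 0.582, and their arid2/3/4 means from 2.13 to 135 FPKM with a median of 5.62. In 44 of them every WT and epcr1/2 value was under 1 FPKM. The WT mean was under 0.5 FPKM in 50 genes (54.9%, against 26.6% of the table), between 0.5 and 2 FPKM in 28 and at least 2 FPKM in 13. The rule limits WT and epcr1/2 values by those of arid2/3/4, so low WT values follow in part from the choice of genes. In the 87 genes with a WT mean above 0 the ratio of the arid2/3/4 mean to the WT mean ranged from 2.47 to 261 with a median of 12.7. AT1G51000, ISU2, AT2G15327 and AT4G34300 were listed at 0 in every WT library. The ratio of the lowest arid2/3/4 value to the highest other value ran from 2.02 to 43.5 with a median of 3.35, leaving out AT1G51000 and ISU2, whose 6 other values were all 0. Only 16 of the 91 reached an arid2/3/4 mean of 10 FPKM.

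**Figure D1:**
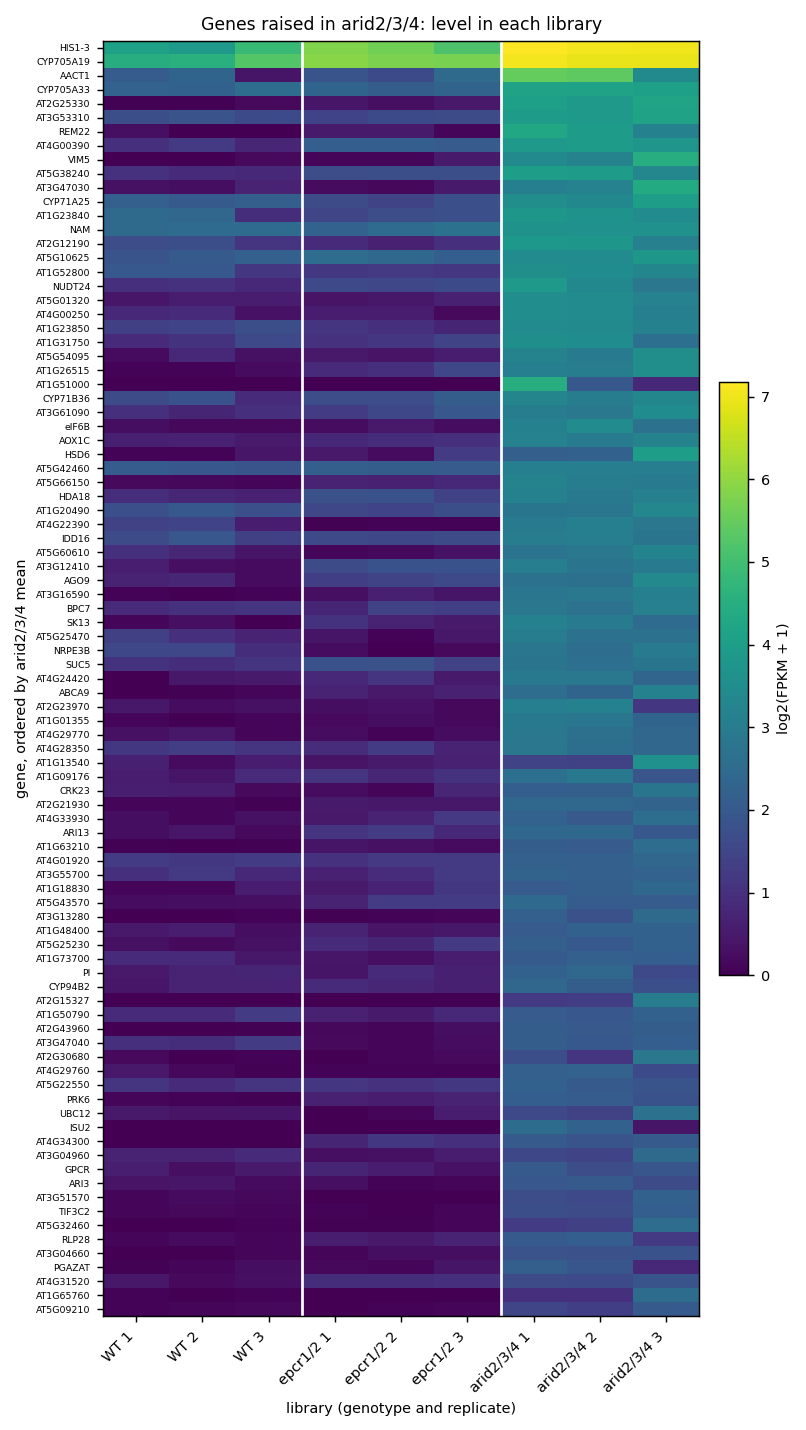
Level of each of the 91 genes (rows, ordered by arid2/3/4 mean) in each of the 9 libraries (columns), coloured by log2(FPKM + 1). The 3 arid2/3/4 columns are brighter in every row, as the rule requires, HIS1-3 and CYP705A19 at the top reach 144 and 132 FPKM, and most rows are near 0 in WT.

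The genes named first, HIS1-3, VIM5, AGO9, HDA18, NRPE3B and AT1G63210, were picked after their values were seen for known roles at chromatin, and no share over the table was counted for such roles. HIS1-3, a linker histone of the H1 type known to be induced by drought, was at 144, 131 and 129 FPKM in arid2/3/4, the highest mean of all (135 ± 8.33, SD, n = 3). It was at 16.1, 13.5 and 27.9 FPKM in WT and at 55.6, 49.3 and 35.0 in epcr1/2, so epcr1/2 lay above WT without overlap. For every member the rule itself sets arid2/3/4 above the other genotypes. The share of genes without overlap between WT and epcr1/2 was not counted. HIS1-3 lies at chr2:7845923-7847031 on the plus strand and has 2 exons.

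VIM5 belongs to the VARIANT IN METHYLATION family, whose members bind methylated cytosine and, through VIM1 above all, keep CG methylation in place after replication. VIM5 transcript was at 9.58, 8.31 and 21.1 FPKM in arid2/3/4, and at 0.0186, 0 and 0.131 FPKM in WT and 0.0858, 0.073 and 0.419 FPKM in epcr1/2. The ratio of the arid2/3/4 mean to the WT mean was 261, the highest of the 87 genes with a WT mean above 0, and replicate 3 stood above the other 2. VIM5 (chr1:21408623-21412283, minus strand, 9 exons) lies within 2 places in gene order of VIM1, which was at 18.8, 17.2 and 24.8 FPKM in WT against 15.8, 14.4 and 18.4 in arid2/3/4.

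AGO9, an Argonaute that binds small interfering RNA and limits the number of gamete precursors in the ovule, was at 5.39, 5.27 and 9.46 FPKM in arid2/3/4. It was at 0.609, 0.693 and 0.165 FPKM in WT and at 1.52, 1.76 and 2.01 in epcr1/2, with no overlap between WT and epcr1/2. HDA18, a histone deacetylase known for its part in the patterning of the root epidermis, was at 7.9, 6.52 and 7.74 FPKM in arid2/3/4. It was at 0.918, 0.711 and 0.59 in WT and at 2.41, 2.49 and 1.63 in epcr1/2, again without overlap of WT and epcr1/2.

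NRPE3B, a paralogue of the third subunit of RNA polymerase II and its plant relatives, followed another order. Its values were 6.01, 4.89 and 6.8 FPKM in arid2/3/4, 1.92, 1.86 and 0.915 FPKM in WT and 0.176, 0 and 0.143 FPKM in epcr1/2, so that epcr1/2 lay below WT. AT1G63210, annotated as the elongation factor Spt6, a histone chaperone that travels with RNA polymerase, was at 3.33, 3.16 and 4.91 FPKM in arid2/3/4. In WT it did not exceed 0.0392 FPKM and in epcr1/2 it was at 0.319, 0.253 and 0.152 FPKM.

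**Figure D2:**
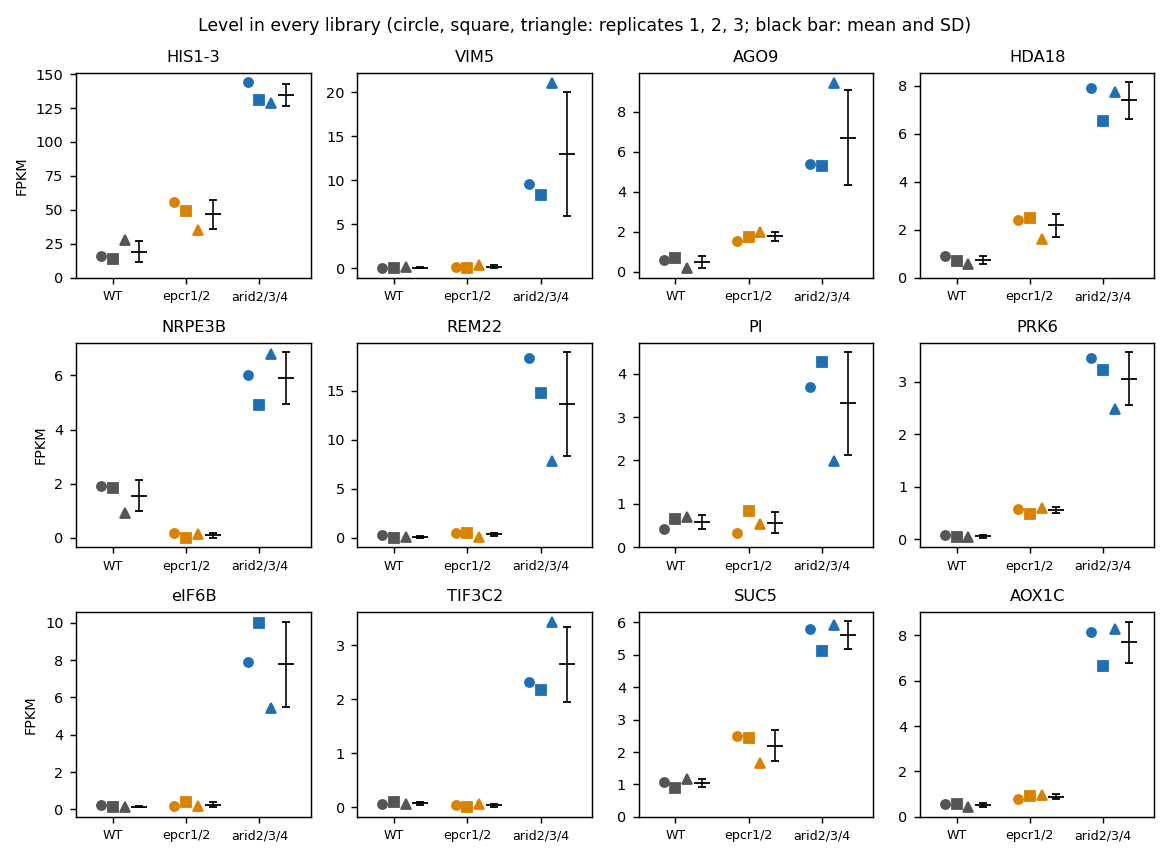
FPKM of 12 of the 91 genes in each library (circle, square and triangle for replicates 1, 2 and 3) by genotype, with the mean and SD of the 3 libraries as a black bar, on a linear axis for each gene. In each panel the arid2/3/4 points lie above all others, as the rule requires. The epcr1/2 points lie between for HIS1-3, AGO9, HDA18, PRK6, SUC5 and AOX1C, and below WT for NRPE3B.

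B3 factors, which bind DNA through a plant-specific domain, numbered 4 (4.4%, against 0.338% of the table). Of genes with a WT mean under 2 FPKM, 0.696% were B3 factors, and of such members 3.85%. REM22, a B3 factor of a family named for expression in reproductive meristems, was at 18.3, 14.7 and 7.85 FPKM in arid2/3/4, at 0.216, 0 and 0.0191 in WT and at 0.422, 0.422 and 0.0954 in epcr1/2. AT3G53310, annotated with the B3 domain only, was at 14.8, 13.7 and 16.7 FPKM in arid2/3/4 and between 1.72 and 2.56 FPKM in the other 6 libraries. AT5G25470 was at 7.11, 5.46 and 5.37 FPKM in arid2/3/4, with 1.58, 0.946 and 0.657 in WT and 0.336, 0.0501 and 0.38 in epcr1/2. AT5G32460, also of the B3 family, was at 1.42, 1.55 and 4.92 FPKM in arid2/3/4 and at most 0.0717 elsewhere. WT and epcr1/2 overlapped for REM22, AT3G53310 and AT5G32460 and did not for AT5G25470.

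PISTILLATA (PI), the MADS factor that with APETALA3 (AP3) specifies petals and stamens, was at 3.69, 4.27 and 1.98 FPKM in arid2/3/4. It was at 0.409, 0.645 and 0.69 FPKM in WT and at 0.335, 0.824 and 0.54 in epcr1/2, which overlapped. AP3 was at 5.71, 4.49 and 1.08 FPKM in arid2/3/4 and at 0.959, 1.68 and 0.717 in epcr1/2, so its replicate 3 kept it out. Over the 15 floral organ identity genes the summed level was 39.3 to 46.9 FPKM in arid2/3/4, 15.4 to 16.1 in WT and 21.8 to 24.2 in epcr1/2. SEP3, which acts in all inner floral organs and is no member, gave 22.2, 16.7 and 18.3 FPKM of this in arid2/3/4. AG was at 0.161, 0.224 and 0.15 FPKM in WT and at 0.0537, 0 and 0.0107 in arid2/3/4, CAL was listed at 0 in arid2/3/4, and AP1 and LFY overlapped with WT. The median log2 difference from WT over the list was 0.326 in arid2/3/4.

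PRK6, a receptor-like kinase with which pollen tubes sense attractant peptides of the ovule, was at 3.46, 3.23 and 2.49 FPKM in arid2/3/4. It was at most 0.0879 FPKM in WT and at 0.57, 0.488 and 0.598 FPKM in epcr1/2, with no overlap of WT and epcr1/2. The summed level of 17 tapetum and pollen genes, none of them among the 91, was 5.28 to 9.62 FPKM in WT, 15.3 to 20 in arid2/3/4 and 26.1 to 35.8 in epcr1/2, with 6 to 8 of the 17 at 0 in a library. GRP19, a pollen coat protein, made up 22.4, 20.9 and 29.2 FPKM of the sum in epcr1/2, and the median log2 difference from WT over the list was 0.0252 in arid2/3/4 and 0 in epcr1/2. NAM, a NAC factor known to act in the integuments of the ovule, was close to the limit of the rule at 11.9, 11.3 and 11.3 FPKM against 3.76 to 5.57 FPKM in the other 6 libraries. Annotated protein kinases numbered 4 (4.4%, near the 4.92% of the table). They were PRK6, AT5G38240 (15.3, 14.6 and 8.99 FPKM in arid2/3/4), the lectin-type AT4G28350 (6.2, 5.07 and 4.2 FPKM) and the cysteine-rich CRK23 (3.4, 3.47 and 5.89 FPKM). In the other 6 libraries the last 3 did not exceed 2.33, 1.49 and 0.703 FPKM. BPC7, of a family that binds GA repeats, was at 6.25, 5.45 and 7.78 FPKM in arid2/3/4 and between 0.676 and 1.61 FPKM elsewhere.

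Proteins of ubiquitin ligases made up the largest annotated group. F-box proteins choose the targets of ligases that are built on a SKP1 subunit, and 9 of the 91 genes were annotated with an F-box (9.89%), against 2.26% of the table and 4.97% of genes with a WT mean under 2 FPKM. Among the members with a WT mean under 2 FPKM, 8 had an F-box (10.3%). AT3G47030 was at 7.55, 8.02 and 20.0 FPKM in arid2/3/4 and at most 0.639 FPKM elsewhere. AT1G26515 was at 7.57, 7.23 and 10.6 FPKM in arid2/3/4, at 0.0439, 0.0506 and 0.148 in WT and at 0.822, 0.967 and 1.91 in epcr1/2. AT3G16590 was at 5.99, 6.34 and 7.55 FPKM and AT3G04660 at 2.55, 2.47 and 2.5 FPKM in arid2/3/4, with no other value above 0.551 and 0.208 FPKM.

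Other genes of the ubiquitin system numbered 4 (4.4% against 1.42% of the table). SK13, a SKP1-like subunit, was at 7.97, 6.74 and 4.7 FPKM in arid2/3/4, at 0.0995, 0.227 and 0 in WT and at 1.07, 0.621 and 0.445 in epcr1/2. ARI13, an ARIADNE-type RING ligase, was at 4.4, 4.31 and 2.94 FPKM in arid2/3/4, 0.207, 0.346 and 0.138 in WT and 1.16, 1.42 and 0.772 in epcr1/2. UBC12, a ubiquitin-conjugating enzyme, was at 2.02, 1.63 and 5.39 FPKM in arid2/3/4 and at most 0.473 FPKM elsewhere. ARI3, another ARIADNE-type ligase, was at 2.85, 3.07 and 2.14 FPKM in arid2/3/4 and at most 0.351 FPKM elsewhere. WT and epcr1/2 did not overlap for SK13 and ARI13, with epcr1/2 the higher, and overlapped for UBC12.

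Several members are relatives of basic cell machinery. eIF6B, a copy of the ribosome biogenesis and initiation factor eIF6, was at 7.9, 10.0 and 5.41 FPKM in arid2/3/4 and between 0.118 and 0.396 FPKM in the other 6 libraries. TIF3C2, a copy of subunit C of the initiation factor eIF3, was at 2.33, 2.17 and 3.44 FPKM in arid2/3/4 and at most 0.11 FPKM elsewhere. AT5G25230, related to the spliceosomal GTPase encoded by MEE5, was at 3.47, 2.97 and 3.71 FPKM in arid2/3/4, 0.262, 0.141 and 0.257 in WT and 0.836, 0.659 and 1.35 in epcr1/2. ISU2, a scaffold for iron-sulphur clusters in mitochondria, was at 4.83, 3.72 and 0.327 FPKM in arid2/3/4 and listed at 0 in all others.

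Cytochrome P450 enzymes, which oxidise small molecules, numbered 6 (6.59% against 0.891% of the table), and 3 of them had a WT mean under 2 FPKM. CYP705A19 was at 132, 122 and 123 FPKM in arid2/3/4, 21.1, 22.7 and 37.5 in WT and 58.9, 53.8 and 52.5 in epcr1/2. Its relative CYP705A33 was at 16.5, 16.5 and 15.7 FPKM in arid2/3/4 and between 3.38 and 4.95 FPKM elsewhere, so here epcr1/2 and WT overlapped. CYP71A25 was at 10.8, 9.24 and 15.3 FPKM in arid2/3/4, with 3.06 to 3.64 in WT and 1.78 to 2.35 in epcr1/2.

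AACT1, an acyltransferase that forms hydroxycinnamoyl conjugates, was at 43.4, 41.3 and 9.55 FPKM in arid2/3/4, with 3.23, 4.02 and 0.314 in WT and 2.66, 2.03 and 4.56 in epcr1/2. Its replicate 3 was 0.225 times the mean of the other 2. AT5G01320, a pyruvate decarboxylase, the enzyme that opens ethanol fermentation, was at 10.5, 9.94 and 8.16 FPKM in arid2/3/4 and between 0.311 and 0.566 FPKM in all others. AOX1C, an alternative oxidase of the mitochondrial chain, was at 8.15, 6.65 and 8.29 FPKM against 0.424 to 0.571 in WT and 0.776 to 0.978 in epcr1/2. SUC5, a sucrose carrier known from the endosperm, was at 5.81, 5.12 and 5.93 FPKM in arid2/3/4, 1.06, 0.901 and 1.16 in WT and 2.5, 2.44 and 1.66 in epcr1/2. The summed level of 4 endosperm genes did not exceed 1.58 FPKM in any library.

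AT2G25330, of the TRAF-like family, stood well above the 2-fold limit of the rule. It was at 15.5, 13.9 and 17.4 FPKM in arid2/3/4, at 0.0377, 0.0218 and 0.142 in WT and at 0.348, 0.224 and 0.398 in epcr1/2, a ratio of 35 between the lowest and the highest other value. The ratio was larger for AT2G15327, an uncharacterized protein at 1.32, 1.45 and 7.1 FPKM in arid2/3/4 and at 0.0303 FPKM in a single other library. The 3 genes annotated as putative endonuclease or glycosyl hydrolase (3.3% against 0.0718% of the table) were AT3G61090, at 7.28, 6.3 and 10.2 FPKM in arid2/3/4, AT1G01355, at 6.47, 6.05 and 3.98, and AT3G13280, at 3.63, 2.46 and 4.62. Their other values did not exceed 2.87, 0.201 and 0.0876 FPKM.

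The storekeeper-related regulators were AT4G00390 and AT4G00250 (2.2% against 0.0862% of the table). In arid2/3/4 they were at 13.5, 14.5 and 12.3 FPKM and at 10.4, 9.95 and 7.5 FPKM. In WT they were at 0.975, 1.35 and 0.698 and at 0.778, 0.859 and 0.267 FPKM, and in epcr1/2 at 3.42, 3.4 and 3.15 and at 0.447, 0.461 and 0.126 FPKM. AT4G00390 thus lay higher in epcr1/2 than in WT in every library, and AT4G00250 overlapped. The groups B3, TRAF-like, endonuclease, storekeeper, translation and ubiquitin were formed after the members had been seen, and no share of any group was tested. Of 15 hand-written lists with 224 measured genes (seed maturation, hormone, stress, organ and cell type genes), 14 held no member and the floral list held PI alone. That is 0.446% of the list genes, beside 0.324% of the table.

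**Figure D3:**
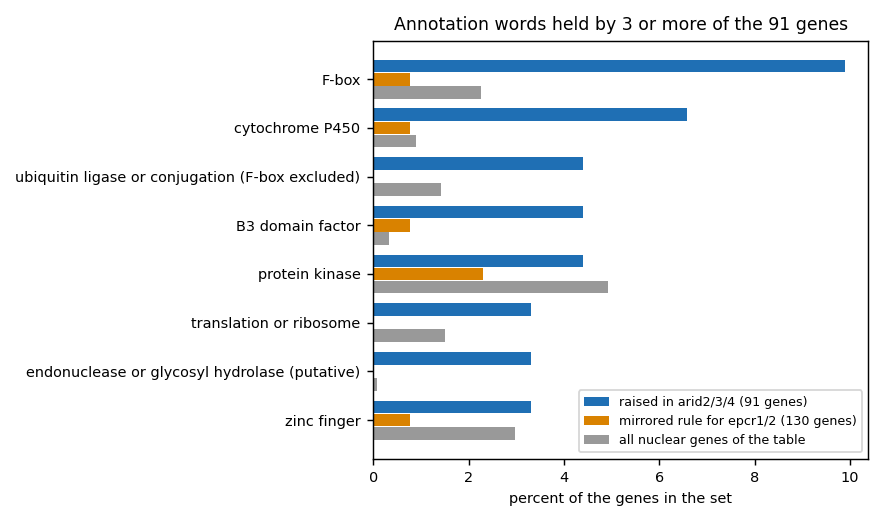
Share of the 91 genes (blue), of the 130 genes that the same rule finds with epcr1/2 in place of arid2/3/4 (orange) and of all nuclear genes (grey) whose annotation holds each word, in percent, for the groups with at least 3 of the 91. F-box genes stand at 9.89%, 0.769% and 2.26%, and protein kinases at 4.4%, 2.31% and 4.92%.

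The same rule with the genotypes exchanged found 145 genes highest in epcr1/2 (0.516%; 130 above 0 in all 3 libraries, 0.462%) and 411 highest in WT (401, or 1.43%). Among the 130 there was 1 F-box gene (0.769%), 1 cytochrome P450 (0.769%) and 1 B3 factor (0.769%), and none of the translation group.

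Neighbouring genes entered together in 3 places, with 6 genes in all, where at most 1 annotated gene could lie between them. AT4G29760 and AT4G29770, 351 bases apart on the plus strand of chromosome 4, are annotated as targets of a trans-acting small interfering RNA. AT4G29770 was at 6.29, 5.32 and 4.14 FPKM in arid2/3/4 and AT4G29760 at 3.59, 3.82 and 2.05 FPKM, and their other values did not exceed 0.388 and 0.408 FPKM. The uncharacterized genes AT1G23840 and AT1G23850, 338 bases apart, were at 12.9, 11.7 and 10.1 FPKM and at 10.0, 9.59 and 7.88 FPKM in arid2/3/4, against at most 4.56 and 2.33 FPKM elsewhere. The F-box gene AT3G47030 and the glycosyl hydrolase gene AT3G47040 lie 507 bases apart on opposite strands, and AT3G47040 was at 3.35, 2.92 and 3.41 FPKM in arid2/3/4 and at most 1.4 elsewhere. Among the 130 genes highest in epcr1/2 there were 4 such places with 9 genes. The 91 were spread over all chromosomes, with 21, 13, 23, 12 and 22 on chromosomes 1 to 5.

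The rule held WT and epcr1/2 under the same limit and did not use their difference, which was tested. The comparison addresses whether genes highest in arid2/3/4 also differed in the mutant of the other subunit. In limma, with calls at an adjusted p under 0.05, 46 of the 91 passed the low-value filter on the WT and epcr1/2 libraries alone. Of these 46, 15 were higher in epcr1/2 (32.6%), where 11.2% of all genes tested were, and 4 were lower (8.7%), where 18.7% were. That filter can be passed through a single genotype. AT1G26515, AT4G34300, AT5G66150, ARI13, AT5G43570, AT5G25230 and AT4G31520, all called higher, had every WT value under 0.5 FPKM. NRPE3B, AT3G47040 and AT5G25470, called lower, had every epcr1/2 value under 0.5 FPKM. The shares over the 46 are therefore given as a description. With the filter over all 9 libraries 90 were tested and ISU2 was not, and 44 of these entered only through the arid2/3/4 values that chose them. That fit called 17 higher (18.9%), beside 10.8% of the 21168 genes tested, and 5 lower (5.56%), beside 17.8%. The rule keeps the WT values of members low, which leaves little room for a lower call on the log2(FPKM + 1) scale. The shares of all genes are thus no like background, and none was computed among genes of similar WT level. The calls it adds are PRK6 and AT2G21930 (higher) and AT4G22390 (lower). These passed the filter only through their arid2/3/4 values and are given as a description. The median log2 difference of the 90 was 0.08 against -0.12 for all tested genes, on the log2(FPKM + 1) scale. Replicates 1 and 2 may share plants, though no label says so. With both averaged as 1 sample and replicate 3 set apart by a block, 8 of the 90 were higher (8.89%), beside 7.93% of all genes. In that fit 2 were lower (2.22%), beside 14.8%. Over the 90, the share of higher calls was thus near that of all genes in this fit. All 8 belong to the 46, several of them through their epcr1/2 values alone, as named above. No share over the 46 was computed for this fit.

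Among those higher in epcr1/2, AT3G12410, of a family of ribonuclease H-like proteins, had a log2 difference of 1.38 ± 0.16 (SE) and an adjusted p of 0.000724 by limma. It was at 0.505, 0.233 and 0.161 FPKM in WT, 2.1, 2.48 and 2.53 in epcr1/2 and 7.46, 5.78 and 6.88 in arid2/3/4. HIS1-3 differed by 1.28 ± 0.28 (adjusted p 0.0107 by limma), AT4G00390 by 1.12 ± 0.16 (0.00169), CYP705A19 by 1.04 ± 0.21 (0.00834), AT1G26515 by 1.02 ± 0.21 (0.0099) and the cupredoxin gene AT4G34300 by 0.97 ± 0.13 (0.00164). AT4G34300 was listed at 0 in all WT libraries and was at 0.686, 1.22 and 0.99 FPKM in epcr1/2. In each of these 6 every epcr1/2 value was above every WT value. The 6 were chosen by the size of this same difference, so that order largely follows from the choice and adds nothing to the calls. Its share over all genes was not counted. With replicates 1 and 2 averaged, the calls of HIS1-3 (adjusted p 0.111 by limma) and CYP705A19 (0.074) ended and those of the other 4 held. The sizes depend on the pseudocount, and with 0.1 in place of 1 the log2 differences were 3.38 for AT4G34300, 2.84 for AT1G26515, 2.72 for AT3G12410, 1.67 for AT4G00390, 1.32 for HIS1-3 and 1.07 for CYP705A19.

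HDA18 was higher in epcr1/2 by 0.86 ± 0.16 (adjusted p 0.0063 by limma). AGO9 differed by 0.91 ± 0.24 (adjusted p 0.0248 by limma), but its call ended without any of 5 of the 6 WT and epcr1/2 libraries, with an adjusted p of 0.0458 to 0.0758 over all 6 removals. The remaining 9 were AT5G38240, AT5G43570, ARI13, AT5G25230, SUC5, AT4G31520, PRK6, AT5G66150 and AT2G21930, with log2 differences from 0.40 to 0.83. Without some single library the calls of AT5G38240 (adjusted p up to 0.063), AT5G43570 (0.0517), ARI13 (0.0613), AT5G25230 (0.0654), SUC5 (0.0694), PRK6 (0.0535) and AT2G21930 (0.0919) ended. With replicates 1 and 2 averaged, HDA18 (adjusted p 0.0432 by limma), ARI13 (0.0409), AT5G43570 (0.0346) and AT5G25230 (0.048) passed. AGO9 (0.0863), AT5G38240 (0.0618), SUC5 (0.113), AT4G31520 (0.0515), PRK6 (0.0789), AT5G66150 (0.0652) and AT2G21930 (0.114) did not.

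In the lower direction, NRPE3B differed by -1.19 ± 0.20 (adjusted p 0.00385 by limma), the F-box gene AT4G22390 by -1.09 ± 0.24 (0.0112) and AT3G47040 by -0.89 ± 0.13 (0.00229). AT4G22390 passed the filter only through its arid2/3/4 values. It was at 1.67, 1.74 and 0.469 FPKM in WT, 0.0282, 0.0405 and 0.0414 in epcr1/2 and 6.89, 7.64 and 6.25 in arid2/3/4. Its epcr1/2 values lay below WT, and its arid2/3/4 values lay above WT by the rule. The B3 gene AT5G25470 differed by -0.70 ± 0.21 (adjusted p 0.0363 by limma) and AT1G23850 by -0.58 ± 0.17 (0.0364). Both calls ended without some single libraries, with adjusted p up to 0.133 and 0.0978. With replicates 1 and 2 averaged, NRPE3B (adjusted p 0.0492 by limma) and AT3G47040 (0.0268) passed, and AT4G22390 (0.0679), AT5G25470 (0.113) and AT1G23850 (0.093) did not. With a pseudocount of 0.1 the differences were -3.08 for NRPE3B, -3.17 for AT4G22390 and -2.39 for AT3G47040.

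**Figure D4:**
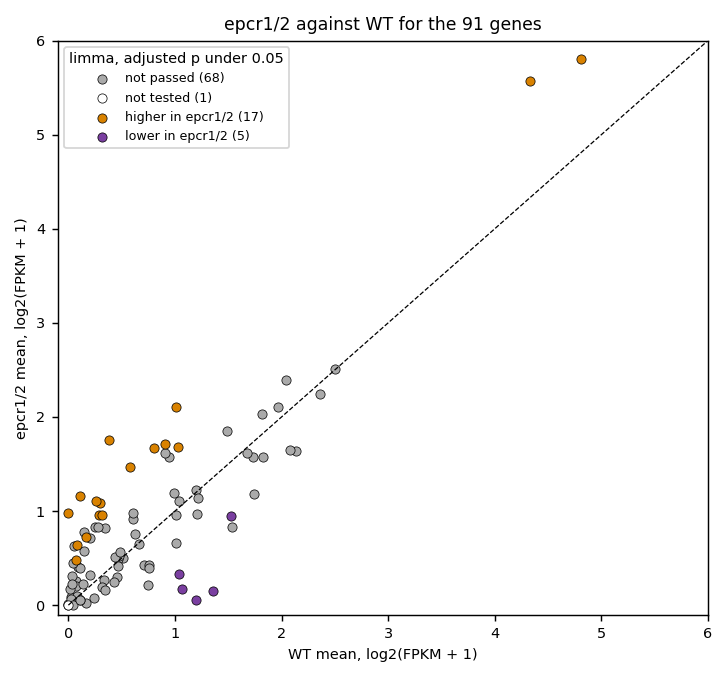
Mean of the 3 epcr1/2 libraries against mean of the 3 WT libraries for the 91 genes, both as log2(FPKM + 1), with the line of equality. The 17 genes higher in epcr1/2 (orange) lie above the line and the 5 lower (purple) below it, and HIS1-3 and CYP705A19 are at the upper right. Among the coloured genes, PRK6, AT2G21930 and AT4G22390 passed the low-value filter only through their arid2/3/4 values.

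With the replicate number as a block, 25 were higher and 9 lower, where 19.3% and 31.9% of all genes were. The values of VIM5 (log2 difference 0.17 ± 0.31), REM22 (0.28 ± 0.28), PI (-0.02 ± 0.23) and eIF6B (0.12 ± 0.20) did not pass. Of these, only PI passed the filter on the WT and epcr1/2 libraries alone.

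Many of the 91 genes have a close relative in the genome, and the annotation names a best Arabidopsis match that is in the table for 79 of them. For 5 the match was itself a member and for 74 it was not. The match lay within 2 places in gene order for 27 of the 79 (34.2%), against 10.9% of all protein-coding genes with a match and 18.2% of those with a WT mean under 2 FPKM. The matches of the 74 had a median WT mean of 2.12 FPKM, while the 74 members themselves had 0.387 FPKM. In WT 25 of the matches but 2 of the members reached 10 FPKM, and the rule itself limits the WT values of members.

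The same shares were taken among genes with a WT mean under 2 FPKM. For 64 members in that range, 62.5% of the matches lay above the member in WT, near the 62.9% of all such genes. A match of 10 FPKM or more was found for 24 of the 64 (37.5%), against 19.3% of such genes. Of the 74 matches, 34 were under 1 FPKM in WT. Among the other 40 the arid2/3/4 mean lay within 2-fold of the WT mean in 33, was higher in 6 and lower in 1, with a median FPKM ratio of 1.05. The following scarce matches were picked for a rise. SK11 stood at means of 0.328 FPKM in WT and 7.61 in arid2/3/4, AT3G12460 at 0.88 and 5.11 and RLP24 at 0.0488 and 2.42. AOX1B stood at 0.00716 and 0.907 FPKM, and CYP89A6 at 0.176 and 1.22 FPKM. In epcr1/2 their means were, in the same order, 5.98, 1.31, 1.93, 0.0816 and 0.583 FPKM. In arid2/3/4 replicate 3 SK11 was at 0.895 FPKM and AOX1B at 0.0921 FPKM. Other scarce matches, such as AT3G47020, ARI14 and AT2G13630, were listed at 0 in every library. With 1 FPKM added to the WT and arid2/3/4 means, 62 of the 74 matches lay within 2-fold of WT. Rises among the scarce matches alone were not counted.

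Several of these pairs join a widely expressed gene with a copy that was scarce in WT. AGO4, the Argonaute of RNA-directed DNA methylation, was at 18.9, 18.2 and 28.9 FPKM in WT against 15.2, 14.5 and 30.7 in arid2/3/4, beside AGO9. NRPB3, a subunit of RNA polymerase II, was at 19.8, 19.3 and 11.7 FPKM in WT against 20.1, 18.2 and 11.5 in arid2/3/4, beside NRPE3B. GTB1, the Spt6 relative of AT1G63210, was at 36.8, 33.2 and 41.2 FPKM in WT against 35.4, 31.7 and 45.7 in arid2/3/4. In each of these pairs the WT and arid2/3/4 values of the abundant relative overlapped.

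HDA05, within 2 places of HDA18, was at 17.5, 16.1 and 17.4 FPKM in WT against 15.4, 15.7 and 20.4 in arid2/3/4. EIF3C was at 81.9, 81.4 and 102 FPKM in WT against 94.7, 88.2 and 96.1 in arid2/3/4, beside TIF3C2. ISU1 was at 143, 157 and 137 FPKM in WT against 235, 212 and 193 in arid2/3/4, and UBC11, within 2 places of UBC12, at 30.6, 27.6 and 32.6 FPKM in WT against 73, 67.7 and 75.4 in arid2/3/4, so for these the relative too was higher in every arid2/3/4 library. The match of 31 of the 74 still stood above the member in arid2/3/4.

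**Figure D5:**
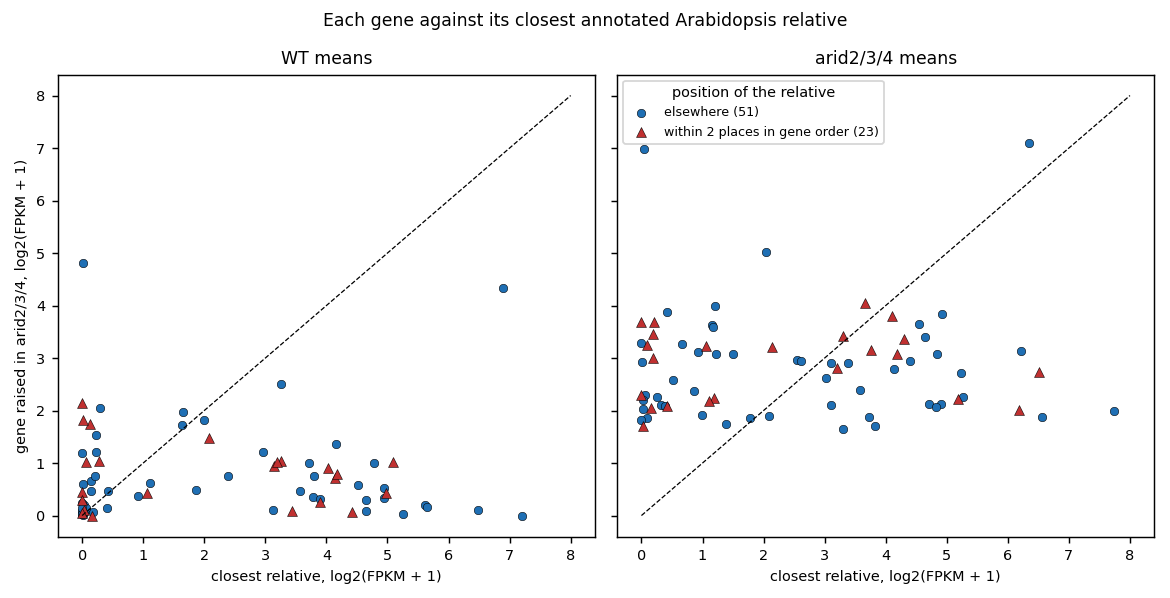
Mean level of each gene (vertical) against that of its closest annotated Arabidopsis relative (horizontal) in WT (left) and arid2/3/4 (right), both as log2(FPKM + 1), for the 74 genes whose relative is no member, with the line of equality and red triangles for relatives within 2 places in gene order. In WT the medians are 0.387 FPKM for the genes and 2.12 FPKM for the relatives, and in arid2/3/4 the relative of 31 of the 74 stands above the gene.

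Reads of close copies may be divided between them in counting. Transcripts aligned over 500 bases or more in 59 pairs, with an identity of 71.3 to 96.4% and a median of 84%. In 8 pairs it was 90% or more, and the values of these members are uncertain in that respect: AT5G25230 with MEE5 (96.4%), AT4G34300 with AT4G33930, also a member (94.3%), AT5G42460 with AT2G17830 (93.7%), AT2G12190 with CYP89A6 (93.5%), AT4G00250 with AT4G00238 (91.9%), NRPE3B with NRPB3 (90.7%), AT2G25330 with AT2G25320 (90.6%) and AOX1C with AOX1B (90%). Of these relatives AT2G25320 was at 9.31, 8.37 and 11.8 FPKM in WT against 11, 9.87 and 14.3 in arid2/3/4, while the ratio of arid2/3/4 to WT means of AT2G25330 was 233.

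A pseudogene stood within 2000 bases of 8.79% of the 91, against 9.13% of all protein-coding genes and 13.4% of those with a WT mean under 2 FPKM. A single exon was found in 29.7%, against 20.6% and 31.7%. Where the annotation lists where a gene is expressed, 10 of 40 entries (25%) named pollen, sperm or the male gametophyte, against 7.02% of all genes and 26% of the scarce ones. The median number of plant structures listed was 9, against 22 and 10.

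Replicate 3 of arid2/3/4 was above both others in 41 of the 91 and below both in 41. It lay within 1.5 times of their mean in 52 (57.1%), against 50.1% of 17324 genes with an arid2/3/4 mean of 2 FPKM or more and no 0 there. It was more than 3 times away in 11, among them AT1G51000 (21.4, 2.92 and 0.747 FPKM), AT2G23970 (7.61, 7.94 and 1.19), AT1G13540 (1.75, 1.61 and 11.5) and HSD6, a hydroxysteroid dehydrogenase (3.52, 3.65 and 15.3). In these 4 the mean is set largely by 1 or 2 libraries.

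The 16 loci found in a single library are mostly short. They are 5 tRNA, 5 snoRNA and 5 miRNA loci and 1 protein-coding gene, 71 to 191 bases long with a median of 80.5. In 15 the value was in arid2/3/4 replicate 3, which is also the deepest library, and in 1, MIR826a, in replicate 2 (88.0 FPKM). The tRNA locus AT2G07762 was at 283 FPKM and the snoRNA locus AT4G02555 at 131 FPKM in replicate 3, and MIR172b, MIR773a, MIR823 and MIR158a, precursors of small regulatory RNAs, were at 27.9, 17.6, 9.22 and 8.01 FPKM there. All were listed at 0 in the other 8 libraries, so they give no replicated difference between genotypes.

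Just inside the 2-fold limit stood IDD16 (2.022), AT1G50790 (2.029) and NAM (2.033), and just outside AT4G34400 (1.989), SHP1 (1.978), a MADS factor of the fruit, and CYP705A25 (1.97), as the ratio of the lowest arid2/3/4 value to the highest other value. Just inside the limit on the mean stood AT5G09210 (2.127 FPKM), AT1G65760 (2.253) and AT4G31520 (2.275), and just outside AT3G44830 (1.828), AT3G44790 (1.821) and AT2G42005 (1.817).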

How the data were processed

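Messenger RNA from seedlings of 3 genotypes was sequenced in 9 libraries. The authors made the deposited FPKM values with STAR 2.5.2b and Cuffdiff on TAIR10, per the submitters' processing notes, which give no order or role. The 1 deposited table (28117 genes) names no unit, and FPKM is inferred from its values. It holds no counts, so no counting interval is given. Names, positions and sequences came from RefSeq's TAIR10.1 by locus tag for 27839 genes, and 278 organelle genes were listed at 0 throughout.

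Members and gene lists were chosen with earlier results of these data known. From the deposited FPKM, log2(FPKM + 1) was computed for 21168 genes (minimum 0.5 FPKM in any 3 libraries) and fitted in limma 3.58.1 (R 4.3.3) with a mean per genotype, a variance trend and Benjamini-Hochberg adjustment. Scripts were tested on simulated data. The closest relative is the best Arabidopsis match in the annotation text, and transcripts were aligned locally (Python 3.11.15).

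The rule for named genes took the 15 highest arid2/3/4 means, the 15 largest ratios of lowest arid2/3/4 to highest other value, up to 4 members per list or annotation group, the 3 on each side of each threshold, neighbouring runs, up to 6 per direction in epcr1/2, and the mutated genes. Others, among them most chromatin genes and all relatives, were chosen after their values were seen.

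No label ties replicates to separate cultures, and p-values reflect variation among these libraries, possibly technical. Deviations from genotype means correlated by 0.63 to 0.84 in the 9 same-numbered pairs, and by 0.66 to 0.76 between numbers 1 and 2 of different genotypes, so the numbers mainly set replicate 3 apart. Alternatives were a replicate block, other pseudocounts, filters and scalings, and leaving out each library.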

Additional observations from a re-analysis of the deposited data

How the results depend on the processing

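The number of genes found by the rule, 107, became 199 with a fold of 1.5, 68 with a fold of 3 and 64 with a minimum mean of 5 FPKM; it was 147 with a minimum of 1 and 99, of which 95 shared, after scaling each library to the same median ratio. Without each library in turn it ran from 110 to 502, the highest without arid2/3/4 replicate 3, where 84 of the 107 were still found. Asking that every arid2/3/4 value be above 0, an alternative chosen after seeing the data, left 91. Of the genes compared between epcr1/2 and WT, the number higher, 17, became 27 with a pseudocount of 0.1, and 8 with replicates 1 and 2 averaged; it was 25 with the replicate block and 11 to 17 without single libraries. The number lower, 5, became 3 after quantile normalization, 9 with the replicate block and 2 with the replicates averaged, and ran from 3 to 9 without single libraries. Over all genes 6039 calls became 10832 with the replicate block and 3642 to 6363 without single libraries. The median log2 difference, 0.08, was 0.25 with a pseudocount of 0.1, 0.16 with the filter on the WT and epcr1/2 libraries alone and 0.13 after quantile normalization, and ran from 0.05 to 0.11 without single libraries. Of 22 calls followed over these alternatives, 0 turned direction, 7 passed in every alternative, and 51 of 283 pairs of call and alternative no longer passed; 12 held without each WT or epcr1/2 library in turn. The causes of these shifts were not tested. By limma at unadjusted p under 0.05, 26 were higher and 8 lower. Depth differed between replicate 3 and the others and was known only roughly, so low values rest on fewer fragments in replicates 1 and 2.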
